A study of Mus musculus with 15 samples.

Results

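Microglia derived from mouse embryonic stem cells and stimulated with lipopolysaccharide plus interferon gamma (LPS+IFNg) were compared directly, across all genes, with the same cells stimulated with interleukin 4 (IL4). The comparison used the 3 LPS+IFNg libraries and the 3 IL4 libraries of a series of 15 RNA-seq libraries, chosen by their stimulation label. Of the 11201 genes in the deposited table, 11138 were tested because 3 or more libraries reached a value of 10, and the other 63 were not. All libraries came from embryonic stem cells of 1 labelled source, C57BL/6-ATCC, whose microglia were cultured in N2 medium with no other cell type named in the labels, so no surrounding brain tissue is represented. LPS, a bacterial cell wall component, was given at 500 ng/ml together with IFNg at 20 ng/ml, IL4 was given at 100 U/ml, and both lasted 24 h. The 6 untreated libraries of the same cells are given beside the stimulated ones as the background, and 3 libraries of cells given TGFb entered the estimate of spread only. The study treated the cells to bring them into different activation states. The labels do not say whether the libraries of a group were separate cultures, and a p-value here therefore reflects library-to-library spread that may be only technical.

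IFNg binds a receptor that activates the kinases JAK1 and JAK2 and drives interferon regulatory factors, interferon-inducible GTPases and antigen presentation. LPS is sensed by TLR4 with its partners CD14 and MD-2 and activates NF-kB and further interferon regulatory factors. IL4 acts through the IL4 receptor and STAT6, and in mouse macrophages and microglia it is known for the enzyme arginase 1 and the mannose receptor. The states reached with the 2 kinds of stimulus are often called classical and alternative activation.

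All values are normalized read counts. As inferred from the values, read counts appear to have been divided by 1 factor per library, with values below 1 set to 1. Differences are LPS+IFNg minus IL4 on the log2(normalized count + 1) scale, from limma with Benjamini-Hochberg adjustment over 11138 genes, and a gene is called when its adjusted p is below 0.05. Means are given ± SD over the 3 libraries of a stimulus or the 6 untreated ones, and ratios are quotients of group means. Library values are given in the order of replicates 1, 2 and 3. Levels of different genes are not compared, because the counts are not divided by gene length. In these bulk cultures, fewer cells of a type and less RNA per cell cannot be told apart.

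The recovered reads summed to 7589049 to 10170627 per LPS+IFNg library, 5523959 to 14361911 per IL4 library and 2682564 to 18676181 per untreated library. Of 14 microglia and macrophage identity genes, 13 were in the table, with summed normalized counts of 33910 to 37760 with LPS+IFNg, 37110 to 37930 with IL4 and 31790 to 34770 untreated. Csf1r, the receptor that microglia need to survive, had means of 2620 ± 899.9, 3097 ± 113 and 2790 ± 140.1 in these groups, and Cd68, a lysosomal membrane protein, 7880 ± 1003, 7773 ± 165 and 7854 ± 358. The homeostatic microglia genes Tmem119 and Cx3cr1 were near the floor of 1, with means of 1.86 ± 1.37 and 3.3 ± 3.99 with LPS+IFNg, 2.03 ± 0.903 and 1.49 ± 0.781 with IL4 and 7.62 ± 3.42 and 2.6 ± 2.28 untreated, and P2ry12, Sall1 and Siglech were not analysed here. The cells thus carried macrophage-lineage markers at high counts and these 2 defining homeostatic markers near 0. Among markers of other cells, 0 of 9 pluripotent and neural precursor genes were in the table, 1 of 11 neuronal genes (Syn1, 53.5, 62.8 and 45.2 with LPS+IFNg and 201, 258 and 253 with IL4), 3 of 9 astrocyte genes and 3 of 9 oligodendrocyte genes. The neutrophil gene S100a8 had 26.3, 17.2 and 10.2 with LPS+IFNg and 1, 2.82 and 1.08 with IL4, and the part of Syn1- or S100a8-expressing cells in the differences was not tested.

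LPS+IFNg replicate 3 stood apart from its group. The chi-square of recovered reads per degree of freedom, which covers counting noise only, was 25.95 between replicates 3 and 1 and 26.54 between replicates 3 and 2. It was 2.881 for the remaining LPS+IFNg pair and 2.588 to 7.567 for pairs of IL4 libraries. On the first principal component of the 6 libraries (86.55% of the variance) the LPS+IFNg libraries lay at -47.73, -46.06 and -62.44 and the IL4 libraries at 50.73 to 53.2. The second component (7.113%) set replicate 3 (-28.08) apart from replicates 1 and 2 (14.73 and 17.86). Of 879 genes called and at least 2-fold higher with LPS+IFNg, replicate 3 was the highest of the 3 libraries in 570 (64.8%, against 42.9% of all tested genes) and over 2 times both others in 91. Of 560 genes called and at least 2-fold lower, it was the lowest in 284 (50.7%, against 41.4%). For this reason values without it are given beside many of the results below.

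**Figure D1:**
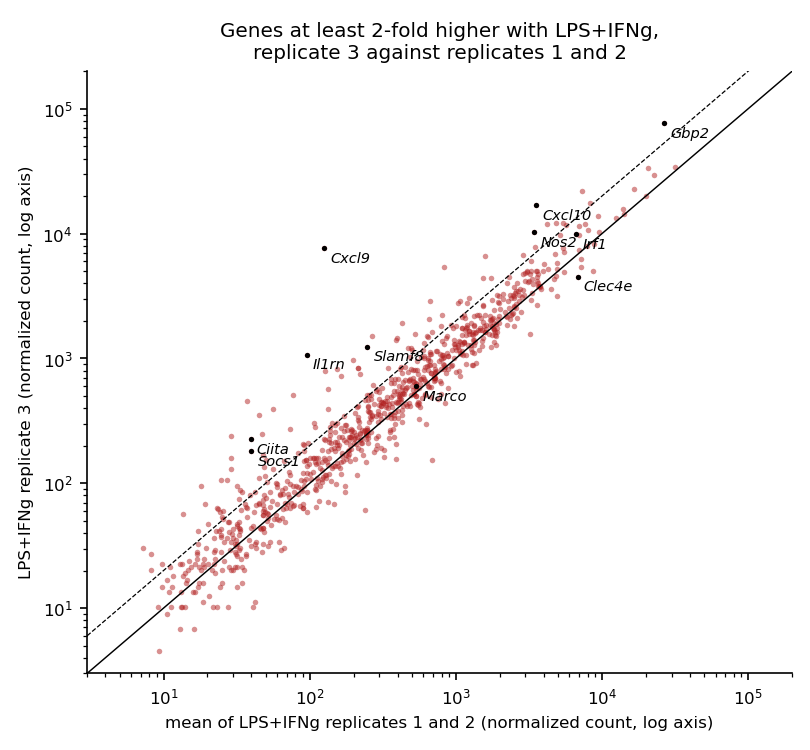
Each point is one of the 879 genes called and at least 2-fold higher with LPS+IFNg, with the mean normalized count of LPS+IFNg replicates 1 and 2 on the x axis and replicate 3 on the y axis, both on log axes; the solid line marks equal values and the dashed line 2 times. Points above the solid line are higher in replicate 3, and Cxcl9, Il1rn, Ciita and Socs1 lie far above the dashed line.

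The sequences before the start sites of the genes at both ends of the comparison were searched for the letters that the 2 signalling pathways are known for. The search covered the 250 bases before the start in RefSeq GRCm38.p6, both strands, for 2 motifs that may overlap each other. The STAT6-type palindrome is TTC and GAA with any 4 bases between, and the interferon response core is GAAA and GAAA with any 2 bases between. The interferon response core was in 2.98% of all 32851 promoters and 2.67% of the 11407 promoters of tested genes. It was in 27.8% of 162 promoters of genes called and at least 8-fold higher with LPS+IFNg (45 promoters, 95% Wilson interval 21.5 to 35.1%). It was in 9.09% of 33 promoters of genes called and at least 8-fold lower (3 promoters, interval 3.14 to 23.6%). The STAT6-type palindrome was in 5.85% of all promoters and 4.62% of those of tested genes. It was in 9.26% of those at least 8-fold higher (interval 5.69 to 14.7%) and 9.09% of those at least 8-fold lower (interval 3.14 to 23.6%). Promoters of a gene with several starts, or of gene families, are not independent, 80.5% of the tested genes had a promoter in the table, and a match is a description of letters, not a binding site. Shown 5′ to 3′ on the gene's strand are 3 of the highest-ranked genes, with interferon response letters in capitals, and Tlr8, one of the lowest-ranked, with STAT6-type letters in capitals. Tgtp2 is at chr11:49064213-49064462 (minus strand), Gbp7 at chr3:142530086-142530335 (plus strand), Cxcl10 at chr5:92348890-92349139 (minus strand) and Tlr8 at chrX:167264330-167264579 (minus strand).
Tgtp2: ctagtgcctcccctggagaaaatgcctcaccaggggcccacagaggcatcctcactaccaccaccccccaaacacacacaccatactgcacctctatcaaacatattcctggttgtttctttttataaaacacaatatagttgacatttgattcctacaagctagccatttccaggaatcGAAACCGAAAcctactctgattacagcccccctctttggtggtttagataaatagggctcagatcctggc
Gbp7: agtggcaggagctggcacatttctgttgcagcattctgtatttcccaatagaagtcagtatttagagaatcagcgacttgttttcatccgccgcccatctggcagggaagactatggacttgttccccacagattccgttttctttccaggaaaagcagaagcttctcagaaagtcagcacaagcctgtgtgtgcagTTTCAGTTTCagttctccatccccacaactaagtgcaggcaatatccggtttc
Cxcl10: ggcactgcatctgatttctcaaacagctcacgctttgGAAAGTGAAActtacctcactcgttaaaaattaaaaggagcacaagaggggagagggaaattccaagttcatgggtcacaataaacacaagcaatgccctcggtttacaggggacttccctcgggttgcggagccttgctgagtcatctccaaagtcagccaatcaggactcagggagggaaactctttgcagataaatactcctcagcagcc
Tlr8: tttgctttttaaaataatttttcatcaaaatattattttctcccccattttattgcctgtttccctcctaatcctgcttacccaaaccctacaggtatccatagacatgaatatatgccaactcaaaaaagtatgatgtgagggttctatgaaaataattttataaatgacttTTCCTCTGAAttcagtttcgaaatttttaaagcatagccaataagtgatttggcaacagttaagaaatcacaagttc
The Tgtp2 window holds an interferon response core, GAAACCGAAA, at bases -70 to -61. Gbp7 holds it on the other strand, read here as TTTCAGTTTC, at -53 to -44. Cxcl10 holds GAAAGTGAAA at -213 to -204, farther from the start, and Tlr8 holds the STAT6-type TTCCTCTGAA at -77 to -68. The windows of the lowest-ranked Ankrd37, Lipn, Cytip, Mgl2, Klk1b11, Ptgs1, Gpr155, Abca9 and Atp2b4 held no STAT6-type letters. On the other side, windows of the highest-ranked Gbp5, Gbp2 and Tgtp1, which overlap annotated exons, also held an interferon response core. So did a window of Gbp3, while another Gbp3 window did not. The Serpina3f and Serpina3g windows held no interferon response core.

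Most tested genes differed between the stimuli. Of 11138 genes, 6422 (57.7%) were called, 3211 (28.8%) higher with LPS+IFNg and 3211 (28.8%) lower, and the median difference over all tested genes was 0.0029 on the log2 scale. At least 2-fold differences were called in 879 genes higher with LPS+IFNg (7.89%) and 560 lower (5.03%). The libraries of the groups did not overlap in 6880 genes (61.8%). With quantile normalization these counts were 755 and 708, with equal totals 808 and 632, and with limma voom on the recovered reads 821 and 642. At least 8-fold differences were less even, with 178 higher and 39 lower. With each library rescaled to the same total, 44.0% of the called genes were higher with LPS+IFNg instead of 50.0%, and 41.7% with quantile normalization. The unadjusted 95% confidence interval of the difference lay wholly between -0.5 and 0.5 in 4302 genes (38.6%), of which 1292 were called all the same. In what follows, higher or lower is written only of genes that were called, and list counts are to be read against the 28.8% called in each direction over all tested genes.

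Untreated cells lay nearer to the IL4 cells on most called genes. For the 6422 called genes, the untreated mean log2 value lay between the means of both stimuli in 4321 (67.3%), above both in 1012 and below both in 1089, and it was nearer to IL4 in 5337 (83.1%). Of the 879 genes at least 2-fold higher with LPS+IFNg, it was nearer to IL4 in 828 (94.2%), and of the 560 at least 2-fold lower in 478 (85.4%). These positions are descriptions with no test.

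**Figure D2:**
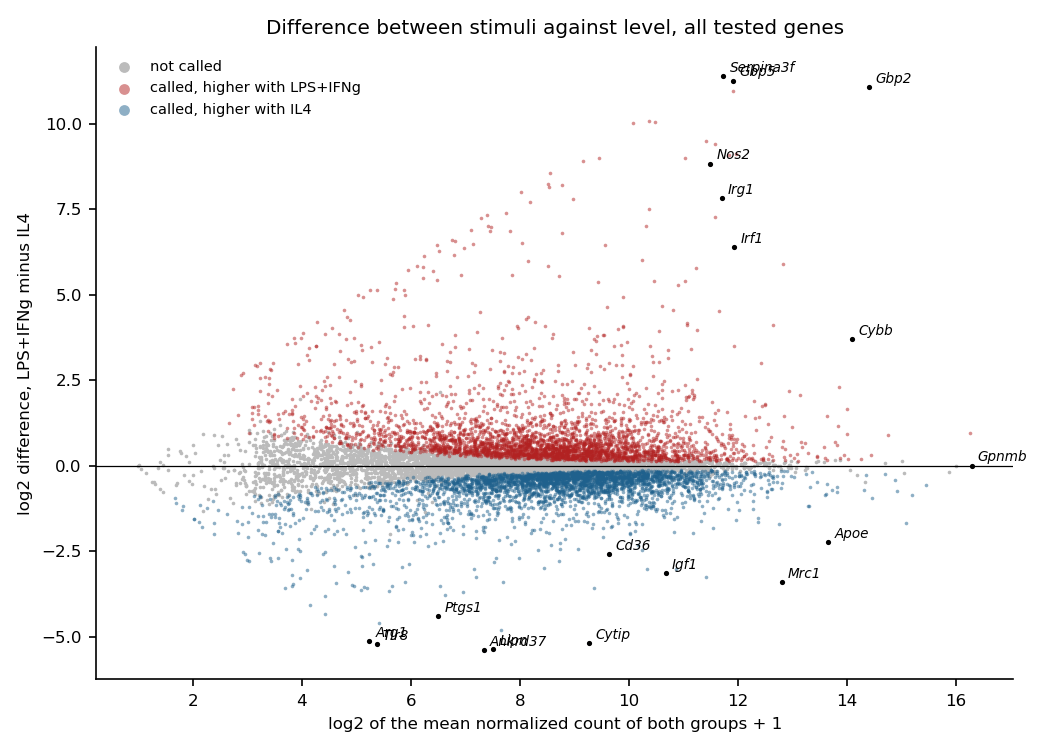
Each point is one of 11138 tested genes, with the log2 of the mean normalized count of both groups plus 1 on the x axis and the log2 difference LPS+IFNg minus IL4 on the y axis; red genes were called higher with LPS+IFNg, blue genes called higher with IL4 and grey genes not called. The upper cloud reaches 11.41 (Serpina3f) and the lower one -5.40 (Ankrd37), while Gpnmb, at the right edge, lies at 0.01.

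The 12 highest-ranked genes were interferon-inducible GTPases, 2 serine protease inhibitors of the Serpina3 cluster and 2 chemokines. Gbp2 (chr3:142620602-142638008), a guanylate-binding protein that attacks the vacuoles of intracellular pathogens, had 27850, 25040 and 76670 normalized counts with LPS+IFNg, 15.5, 19.8 and 14 with IL4 and 9.43 to 25.2 (median 11.7) untreated. Gbp5 (chr3:142493978-142522344), a family member that promotes inflammasome assembly, had 5974, 5334 and 11840 with LPS+IFNg and 1.79, 1.41 and 2.69 with IL4. The groups were far apart in both genes, by 11.09 (SE 0.374, adjusted p = 1.47e-14) and 11.27 (SE 0.387, adjusted p = 1.94e-14) on the log2 scale, and replicate 3 was the highest library. Gbp6 (chr5:105270702-105293698) had 1794, 1718 and 2928 with LPS+IFNg and no IL4 library above the floor of 1, which allows 0 to 2 reads in the group. With the IL4 group set at 3 reads in all the read ratio adjusted for depth was 2922, and with 2 reads it was 4383 (exact 95% counting interval 1213 to 36200). Gbp7 (chr3:142530342-142550149) had 4917, 4662 and 6848 against 6.57, 7.06 and 5.92, and Gbp3 (chr3:142560026-142573209) 5649, 5419 and 7173 against 3.59, 14.1 and 9.16. The immunity-related GTPases Tgtp2 (chr11:49057194-49064206) and Tgtp1 (chr11:48985327-48994172) mark pathogen vacuoles. Tgtp2 had 2911, 2650 and 2346 with LPS+IFNg against 1.2, 1.41 and 1.62 with IL4, and Tgtp1 2863, 2523 and 3203 against 2.99, 1.41 and 1. Iigp1 (chr18:60376027-60392634), of the same family, had 5783, 5119 and 12120 against 4.18, 1.41 and 2.69. Unlike the guanylate-binding proteins named here, Tgtp2 was lowest in replicate 3. Near-identical copies in the Gbp, Tgtp and Serpina3 families can share reads, so single members are uncertain.

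Serpina3f (chr12:104214544-104221129) had 4461, 4013 and 11940 with LPS+IFNg and 3 recovered reads in all with IL4, a read ratio adjusted for depth of 8884 with an exact 95% counting interval from 3040 to 43080. The floor could hide further IL4 reads up to 4 in all, with which the ratio was 6663 (interval 2602 to 24460). Serpina3g (chr12:104236245-104241939) had 4964, 4713 and 12130 against 12.6, 12.7 and 8.62. Cxcl10 (chr5:92346638-92348889), a chemokine that draws activated T cells through CXCR3, had 3711, 3360 and 16920 against 13.2, 9.88 and 7, and Ccl5 (chr11:83525778-83530518), an attractant of T cells and monocytes, 3453, 3098 and 6019 against 7.17, 5.65 and 7.54. In these 4 genes no IL4 library came near an LPS+IFNg library. The ratio was 2630 for Gbp2, 644 for Serpina3g and 799 for Cxcl10, and without LPS+IFNg replicate 3 it was 1610, 428 and 353. The mean of Serpina3f was 4237 without that library, against 6805 with it.

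The 12 lowest-ranked genes, higher with IL4, were of mixed kinds. Arg1 (chr10:24915221-24927484), arginase 1, had 1, 1 and 1.13 with LPS+IFNg, 75.3, 87.5 and 53.9 with IL4 and 1 to 2.8 (median 1.04) untreated. It had 1 recovered read in the LPS+IFNg group, or up to 3 with those the floor could hide, and 288 in the IL4 group. The depth-adjusted ratio was 227 with 1 read (exact 95% counting interval 40.4 to 8994) and 75.7 with 3 reads (interval 25.6 to 369). Arg1 was therefore near the floor in untreated cells as well as with LPS+IFNg. Tlr8 (chrX:167242696-167264329), an endosomal receptor for single-stranded RNA, had 1.55, 1 and 1 against 81.3, 86.1 and 71.6 and 2.8 to 7.54 (median 4.31) untreated, with 2 recovered reads against 330 and a ratio of 130 (interval 35.7 to 1078). With the 3 reads that the floor allows the Tlr8 ratio was 86.7 (interval 29.4 to 422). Mgl2 (chr11:70130329-70137550), a C-type lectin that binds galactose, had 17.8, 17.2 and 6.77 against 377, 392 and 385 and 50.8 to 75.7 (median 64.7) untreated. Lipn (chr19:34067358-34084918), a lipase family member, had 7.75, 8.6 and 6.77 against 359, 381 and 328 and 30.8 to 54.7 (median 37.1) untreated. For all 4 genes the untreated libraries lay below every IL4 library.

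As with Mgl2 and Lipn, several other low-ranked genes were well above the LPS+IFNg level in untreated cells. Ankrd37 (chr8:45996902-46005707), an ankyrin-repeat gene known from hypoxia responses, had 6.2, 7.74 and 5.64 with LPS+IFNg, 310.2, 360 and 278 with IL4 and 117 to 174 (median 148) untreated, a difference of -5.40 (SE 0.187, adjusted p = 2.23e-14). Cytip (chr2:58129137-58195532), a cytohesin-interacting regulator of cell adhesion, had 24.8, 29.2 and 46.3 against 1234, 1292 and 1087 and 509 to 630.4 (median 584) untreated. Ptgs1 (chr2:36230426-36252272), the constitutive cyclooxygenase, had 8.52, 7.74 and 5.64 against 178, 164 and 174 and 37.7 to 79.7 (median 59.2) untreated. Each of these 3 had its untreated libraries between the groups. Abca9 (chr11:110100749-110168196), a lipid transporter family member, had 21.7, 25.8 and 7.9 against 244, 241 and 200.4 and 187 to 275 (median 242) untreated, and Atp2b4 (chr1:133699457-133801041), a calcium pump of the plasma membrane, 10.1, 8.6 and 2.26 against 97.4, 84.7 and 82.4 and 129 to 159 (median 150.5). For Atp2b4 the untreated libraries lay above every stimulated one. Gpr155 (chr2:73341506-73386572), Klk1b11 (chr7:43995877-43999875), a kallikrein of a family of near-identical copies, and Ang2 (chr14:51195324-51199148), a ribonuclease, had differences of -3.78, -4.61 and -3.62. Ang2 had 3.1, 8.6 and 2.26 against 62.8, 60.7 and 59.8, and its difference was -4.09 without LPS+IFNg replicate 2.

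The panel of genes of both activation states and their signalling had 32 genes, of which 27 were in the table. It was chosen with earlier results of these data known, so its called share is a description only. The alternative-activation genes Chil3 and Retnla and the chemokines Ccl17, Ccl22 and Ccl24 were not analysed here. Of the 27, 22 were called (57.7% of all tested genes were).

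**Figure D3:**
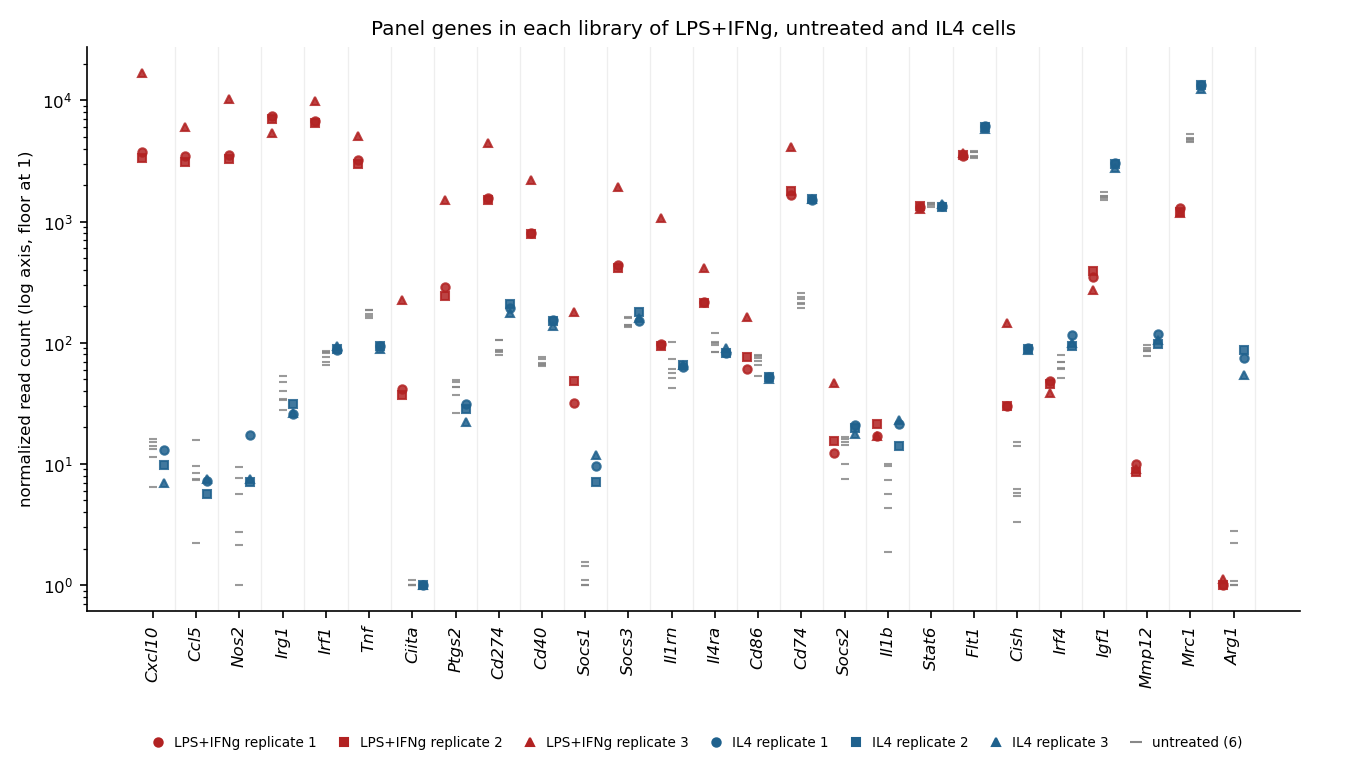
Normalized read counts (log axis, values below 1 set to 1) of all but 1 of the 27 panel genes in each LPS+IFNg library (red), IL4 library (blue) and untreated library (grey dashes), with the replicate given by the marker shape and genes ordered by their difference. Genes at the left lie high in all 3 LPS+IFNg libraries and genes at the right in all 3 IL4 libraries, and replicate 3 (triangles) is the highest LPS+IFNg library for most of the left-hand genes.

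Of 18 tested members of the list of IFNg and LPS receptors and proximal signal, 9 were called higher with LPS+IFNg and 4 lower (median 0.20). Ticam2, the adaptor that carries TLR4 signals to the TRIF pathway, had 332, 307 and 444 with LPS+IFNg against 42.4, 31.1 and 31.2 with IL4, and Jak2 672, 678 and 1082 against 241, 175 and 199. These libraries did not overlap between the groups. Irak2, a kinase of Toll-like receptor signalling, was 4.51-fold higher, and Irak3, its inhibitory relative, had a mean of 152 ± 17.4 against 35.9 ± 6.54 (difference 2.06). Of the receptor genes, Ifngr1 differed by -0.18 and Tlr4 by -0.40 and neither was called, while Ifngr2 was called at 0.28 and Cd14 at 0.56. Lower with LPS+IFNg were Irak4 (-0.69), Tirap (-0.54), Ticam1 (-0.40) and Irak1 (-0.20). Without LPS+IFNg replicate 3, Irak1 was not called (-0.12, adjusted p = 0.0962), nor was it without IL4 replicate 2 (adjusted p = 0.0895).

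Components of the IL4 receptor were higher with LPS+IFNg than with IL4. Of 8 tested genes of this list, 6 were called higher with LPS+IFNg and 1 lower (median 0.94). Il4ra (chr7:125552120-125579474), the receptor chain that binds IL4, had 218, 214 and 416 with LPS+IFNg, 81.9, 81.9 and 91 with IL4 and 83.9 to 120.5 (median 98.2) untreated, a difference of 1.65 (SE 0.19, adjusted p = 5.51e-07). Of the IL4 libraries 2 lay below the untreated range and the third within it. Il2rg, the common gamma chain, was 2.06-fold higher with LPS+IFNg, Tyk2 2.91-fold, and Il13ra1 had a mean of 809 ± 248 against 349 ± 20.02. Stat6 (chr10:127642986-127660957), the transcription factor of IL4 signalling, had 1309, 1331 and 1260 against 1346, 1330 and 1382 and 1327 to 1430 (median 1402) untreated. Its difference of -0.06 was not called, and its 95% interval ran from -0.16 to 0.04. Irs2, an insulin receptor substrate that also relays IL4 signals, was the 1 gene lower with LPS+IFNg, with 58.1, 68.8 and 61 against 121, 149.6 and 169.

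The SOCS genes, feedback inhibitors of cytokine signalling, did not move alike. Of 16 tested STAT and SOCS genes, 8 were called higher with LPS+IFNg and 3 lower (median 0.28). Socs1 (chr16:10782240-10785536), which blocks JAK kinases of the interferon and IL4 receptors, had 31.8, 48.1 and 181 with LPS+IFNg, 9.56, 7.06 and 11.8 with IL4 and 1 to 1.56 (median 1.05) untreated. Both stimulated groups therefore lay above the untreated libraries, and LPS+IFNg above IL4 (adjusted p = 9.24e-05). Socs3, an inhibitor of IL6-type signalling, had 441, 416 and 1928 against 150, 179 and 159 and 136 to 164 (median 141) untreated. Cish (chr9:107296026-107302784), a target of STAT5 and STAT6, had 30.2, 30.1 and 144 with LPS+IFNg, 89.6, 88.9 and 87.3 with IL4 and 3.31 to 15.1 (median 6) untreated. Its groups overlapped through LPS+IFNg replicate 3 alone, and it was not called (-0.78, adjusted p = 0.204). Without that library the difference was -1.52 (adjusted p = 0.00483). Without it the ratio of Socs1 was 4.21 instead of 9.15 and that of Socs3 2.63 instead of 5.7, and Stat5a, called lower with LPS+IFNg (-0.35), was not called (-0.24, adjusted p = 0.0513). Stat5a was not called without IL4 replicate 3 either (adjusted p = 0.0614). Socs2 had 12.4, 15.5 and 46.3 against 20.9, 19.8 and 17.8 and was not called (0.10, adjusted p = 0.844).

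Of 8 tested interferon regulatory factors, 6 were called higher with LPS+IFNg and 1 lower (median 1.46). Without LPS+IFNg replicate 3 these counts were 5 and 1. Irf5 lost its call without that library (0.07, adjusted p = 0.384), without IL4 replicate 1 (0.117) and without IL4 replicate 3 (0.132). It was not called with equal totals (0.0673) or quantile normalization (0.0605) either. Irf1 (chr11:53770014-53778374), an early responder to IFNg, had 6777, 6527 and 9914 with LPS+IFNg, 87.2, 88.9 and 93.2 with IL4 and 66 to 85.2 (median 79.3) untreated, and Irf7, the amplifier of type I interferon, 743, 918 and 824 against 12.6, 24 and 15.6. Irf8, a lineage factor of macrophages and microglia, had a mean of 3255 ± 2883 against 552 ± 43.9, and without replicate 3 its ratio was 2.88 instead of 5.9. Irf4 (chr13:30749226-30766976), the member known from IL4-treated macrophages, went the other way, with 48, 45.6 and 38.4 against 115, 94.6 and 99.7 and 50.9 to 78.7 (median 65.6) untreated (difference -1.21, adjusted p = 6.91e-06). Irf3 had means of 262 ± 13.9 and 263 ± 28.7 and was not called.

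Among 15 tested transcription factors of alternative activation, 7 were called lower with LPS+IFNg and 5 higher (median -0.39). Maf, a transcription factor of mature macrophages, had 31, 30.9 and 33.9 with LPS+IFNg, 96.8, 98.8 and 92.1 with IL4 and 61.8 to 95.3 (median 72.2) untreated, so that untreated libraries reached into the IL4 range (difference -1.56, adjusted p = 8.78e-08). Pparg, a lipid-sensing nuclear receptor, had a mean of 2.01 ± 0.774 against 12.1 ± 4.85 (difference -2.08), and Klf4, a STAT6 partner, 64.3 ± 7.01 against 112 ± 15.1 (-0.78). Myc, Cebpb, Rbpj, Bcl6 and Kdm6b, although linked to alternative activation, were higher with LPS+IFNg, Myc by 1.90 and Cebpb by 1.08. Kdm6b, called at 0.67, was not called without LPS+IFNg replicate 3 (0.46, adjusted p = 0.056). Egr2, with means of 40.8 ± 26.3 and 47.5 ± 2.9, was not called.

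NF-kB genes were higher with LPS+IFNg almost throughout. Of 20 tested subunits and inhibitors, 18 were called higher and 1 lower (median 1.81). The inhibitor genes Nfkbia (3672, 3534 and 4981 against 214, 223 and 224) and Nfkbie (1074, 1031 and 1382 against 66.3, 73.4 and 67.3), which NF-kB itself induces, were 18.4-fold and 16.8-fold higher. Tnfaip3, the feedback enzyme A20, was 8.34-fold higher and Nfkb1 2.94-fold. These 3 inhibitors had larger differences than Nfkb1, the 1 NF-kB subunit gene given here. No test was made between them, and inhibitors and subunits were not compared as sets. The 1 gene lower with LPS+IFNg was Nfkbid (102, 106 and 67.7 against 113, 133 and 129), and without LPS+IFNg replicate 3 it was not called (-0.26, adjusted p = 0.214), nor without IL4 replicate 2 (adjusted p = 0.104) or IL4 replicate 3 (adjusted p = 0.0892). Ikbkb, the kinase subunit, had means of 510.2 ± 8.74 and 562 ± 9.52 and was not called.

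All 20 tested interferon-inducible GTPases were called higher with LPS+IFNg, with a median of 6.73, or 8.45 with the 6 genes with no IL4 library above the floor set at 3 IL4 reads over the group. Irgm1, a regulator of the family, had 3034, 2782 and 3240 with LPS+IFNg, 113, 114 and 127 with IL4 and 113 to 168 (median 127) untreated, a ratio of 25.6. Igtp had a mean of 2372 ± 674 against 35.4 ± 6.51, Irgm2 1352 ± 23.9 against 31.8 ± 5.58 and Ifi47 717 ± 13.2 against 11.7 ± 2.48. Mx1, an antiviral GTPase, had a mean of 36 ± 5.43 with LPS+IFNg, and its IL4 and untreated libraries were at the floor of 1. The IL4 libraries of Irgm1 thus lay within or at the edge of the untreated range.

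Of 36 tested antiviral genes, 35 were called higher with LPS+IFNg and 0 lower (median 3.63). Oasl2 had 2465, 2564 and 2592 against 16.1, 18.4 and 21.6, a ratio of 136, and Ifit2, which binds viral RNA, 3530, 3582 and 5065 against 93.8, 104 and 85.7. Isg15, a ubiquitin-like modifier, had a mean of 1503 ± 165 against 16.4 ± 4, and Parp14 was 55.6-fold higher. The nucleic acid sensor Zbp1 had a mean of 333 ± 123 with LPS+IFNg and no IL4 library above the floor. The 1 member not called was Ifitm2, with means of 1089 ± 126 and 1099 ± 63.4 (difference -0.02), where its neighbour in the family Ifitm3 had 2811 ± 466 and 181 ± 18.8. In Ifi204 the IL4 mean of 55.5 ± 6.59 was above the untreated one of 13.8 ± 2.62, and the LPS+IFNg mean was 1497 ± 635. Several of these genes belong to families with similar sequences (Oas1, Ifit, Ifi20x), and single members are uncertain.

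Antigen presentation by MHC class I was higher with LPS+IFNg in 21 of 24 tested genes and lower in 2 (median 2.24). The heavy chain gene H2-K1 had 12350, 12750 and 13450 against 2609, 2897 and 2906 and 2270 to 2429 (median 2327) untreated, and B2m, the light chain, 23010, 22550 and 29420 against 7915, 7961 and 7548. The peptide transporter Tap1 was 23.6-fold higher and Tapbp, which bridges it to class I, 8.1-fold. The immunoproteasome subunit Psmb8 had a mean of 3768 ± 60.7 against 805 ± 64.3, and Psmb9 1391 ± 147 against 96.7 ± 2. The 2 genes lower with LPS+IFNg were Calr and Canx, general chaperones of the endoplasmic reticulum. Calr had 8607, 8438 and 9421 against 15610, 15390 and 16540, and Canx 3923, 3732 and 4015 against 4686, 4669 and 4640. H2 genes share much of their sequence, so single heavy chains are uncertain.

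MHC class II genes were fewer and less even. Of 9 tested, 6 were called higher with LPS+IFNg and 2 lower (median 1.19). Ciita (chr16:10480059-10528418), the master regulator of class II, had 41.8, 37 and 225 with LPS+IFNg and no IL4 library above the floor, which allows 0 to 2 reads in the group. The depth-adjusted ratio was 125 with IL4 set at 3 reads over the group and 188 with 2 reads (exact 95% counting interval 51.5 to 1558). Without LPS+IFNg replicate 3 its LPS+IFNg mean was 39.4 instead of 101. Cd74, the invariant chain, had 1646, 1794 and 4087 with LPS+IFNg, 1516, 1530 and 1530 with IL4 and 193 to 256 (median 223) untreated. Both stimuli were thus far above untreated cells in Cd74. Its difference of 0.59 was called (adjusted p = 0.0278) but not without LPS+IFNg replicate 3 (0.17, adjusted p = 0.194), nor without any 1 of the IL4 libraries (adjusted p from 0.059 to 0.0608). Ctss, the protease that trims the invariant chain, had 8125, 7931 and 10790 against 2673, 2557 and 2470. The 2 lower genes were Rfxank and Ifi30, and both had overlapping groups. Ifi30, a thiol reductase of antigen processing, had 2335, 2524 and 3839 against 3823, 3679 and 3819, and its difference of -0.42 was -0.64 without replicate 3. From the 6 stimulated libraries alone Ifi30 was not called (adjusted p = 0.0677). Rfxank, a class II promoter factor, differed by -0.34 and was not called without IL4 replicate 1 (adjusted p = 0.0702), IL4 replicate 2 (0.0739), LPS+IFNg replicate 1 (0.0562) or LPS+IFNg replicate 2 (0.18).

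**Figure D4:**
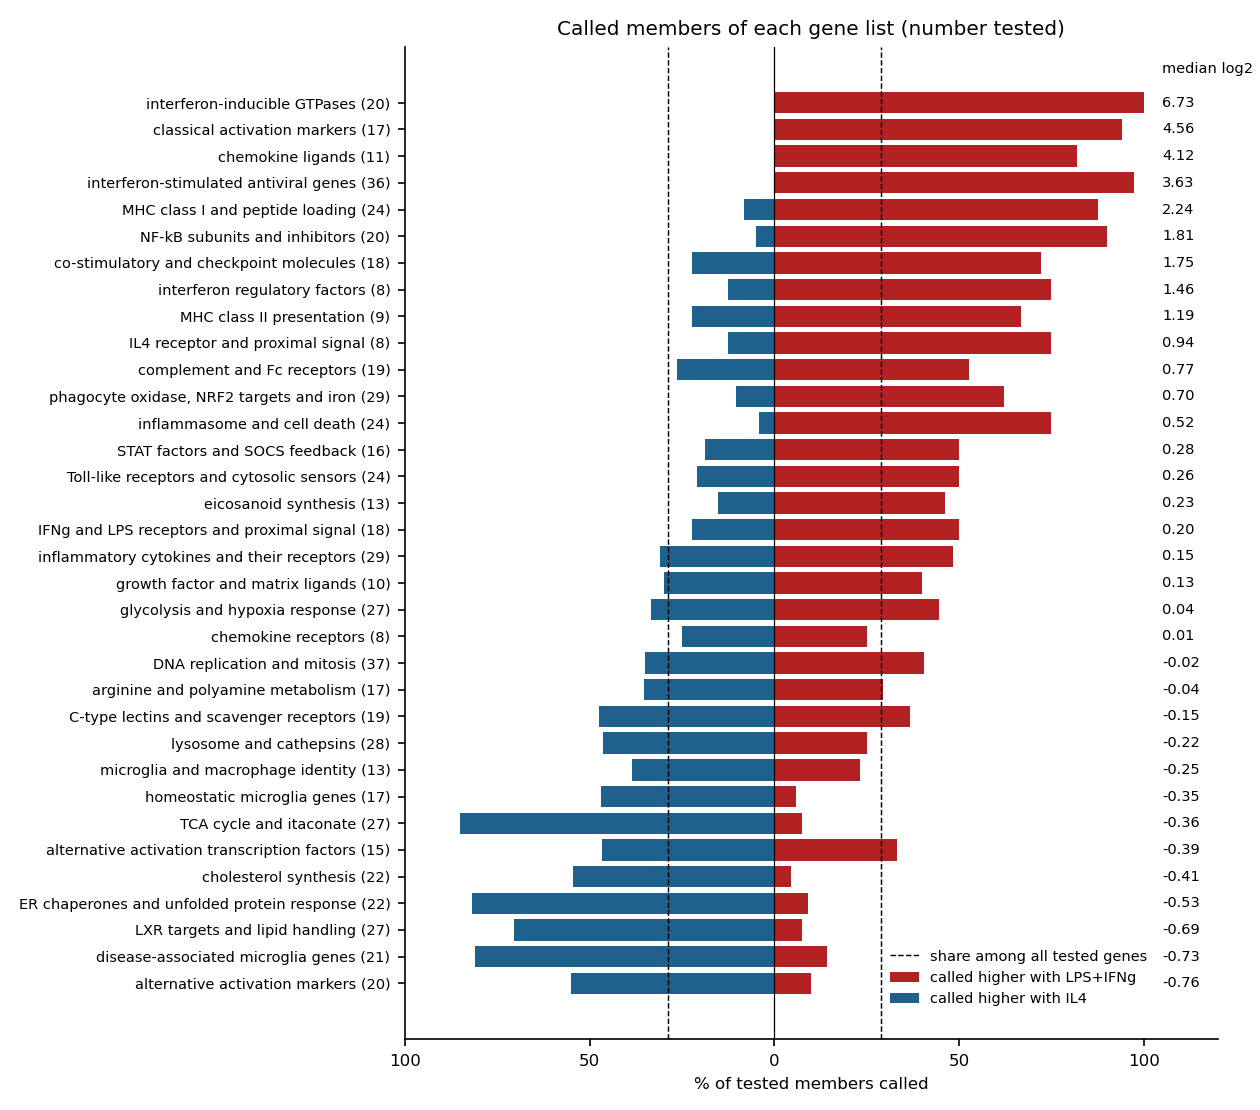
For each gene list (number of tested members in parentheses), the bars give the percent of tested members called higher with LPS+IFNg (red, to the right) and called higher with IL4 (blue, to the left), with the list's median log2 difference at the right; the dashed lines mark the 28.8% of all tested genes called in each direction. The medians of the lists plotted run from 6.73 for interferon-inducible GTPases to -0.76 for alternative activation markers, and the TCA cycle, ER chaperone and disease-associated microglia lists show blue bars far past the dashed line.

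Classical activation markers were higher with LPS+IFNg in 16 of 17 tested genes (median 4.56), and in 14 without LPS+IFNg replicate 3. Nos2 (chr11:78920787-78960254), inducible nitric oxide synthase, had 3560, 3309 and 10320 with LPS+IFNg, 17.3, 7.06 and 7.54 with IL4 and 1 to 9.43 (median 4.17) untreated (difference 8.84, SE 0.563, adjusted p = 1.5e-10). Tnf (chr17:35199381-35202007), the inflammatory cytokine, had 3198, 2978 and 5055 against 93.2, 93.2 and 88.3 and 159 to 187 (median 179.6) untreated, so that every IL4 library lay below every untreated one. Ptgs2, the inducible cyclooxygenase, had 288, 242 and 1505 against 31.1, 28.2 and 22.1, and Marco, a scavenger receptor, 534, 539.9 and 597 against 7.17, 8.47 and 7.54. Il1b (chr2:129364570-129371139), the precursor of IL-1 beta, was the 1 marker not called, with 17.1, 21.5 and 16.9 against 21.5, 14.1 and 23.2 and 1.89 to 9.93 (median 6.51) untreated (difference -0.06, 95% interval -0.96 to 0.84). The values are compatible with any difference within that interval. Without LPS+IFNg replicate 3 the ratio was 323 instead of 538 for Nos2 and 9.78 instead of 25 for Ptgs2.

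Chemokine ligands were higher with LPS+IFNg in 9 of 11 tested genes and lower in 0 (median 4.12). Ccl3, a macrophage inflammatory protein, had 3871, 3472 and 4753 against 245, 215 and 229 and 443 to 536 (median 466) untreated. Ccl4, another, had 1229, 1221 and 3072 against 52, 52.2 and 56 and 71.7 to 98.1 (median 76.9) untreated. IL4 libraries were therefore below all untreated libraries in both genes. Ccl2, the monocyte attractant, had a mean of 1719 ± 912 with LPS+IFNg, 137 ± 19.5 with IL4 and 55.1 ± 12 untreated. Cxcl9, a ligand of CXCR3, had 149.5, 103 and 7680 against 1, 2.82 and 1.62, with replicate 3 far above the others of its group. Its ratio was 1460, and 69.7 without replicate 3, and it was not called with limma voom on the recovered reads (adjusted p = 0.234). Without replicate 3 the ratio of Ccl4 was 22.9 instead of 34.5. Ccl7, with means of 42.3 ± 14.2, 20.2 ± 0.623 and 2.4 ± 1.71, was not called (difference 0.98). Of 8 tested chemokine receptors, 2 were called higher with LPS+IFNg and 2 lower. Ccrl2, an atypical receptor, had 428, 405 and 515 against 2.39, 1.41 and 5.92, and its difference of 6.87 was 7.29 without IL4 replicate 3. Lower with LPS+IFNg were Cxcr4, the CXCL12 receptor, with 127, 111 and 172 against 308, 305 and 328, and C3ar1, an anaphylatoxin receptor, with 314, 376 and 437 against 1309, 1248 and 1245.

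Of 29 tested cytokines and cytokine receptors, 14 were called higher with LPS+IFNg and 9 lower (median 0.15). Higher were Il15ra, the chain that presents IL15 (8.99-fold), Il12rb1 (11-fold), Tnfrsf1b, a TNF receptor (3.09-fold), and Csf1, the growth factor of microglia (2.59-fold). Csf1 had 4950, 4929 and 3175 against 1705, 1745 and 1598 and 1098 to 1192 (median 1141) untreated, and both stimulated groups lay above the untreated libraries. Higher with IL4 were Il6ra, the IL6 receptor chain (199.9, 196 and 118 against 757, 717 and 736), Csf2rb, the common beta chain (2675, 2695 and 3361 against 7321, 6966 and 6588), Il10rb and Il6st. Il1rn (chr2:24336853-24351494), the IL1 receptor antagonist, had 97.6, 93.7 and 1075 against 62.8, 64.9 and 65.2. Its replicate 3 was far above the others, and the gene was called with it (1.72, adjusted p = 0.017) and not without it (0.57, adjusted p = 0.0581).

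Among 10 tested growth factor and matrix ligands, 4 were called higher with LPS+IFNg and 3 lower. Igf1 (chr10:87858265-87937042), a trophic factor of alternatively activated cells, had 348, 388 and 274 with LPS+IFNg, 3045, 2962 and 2777 with IL4 and 1511 to 1740 (median 1622) untreated, a ratio of 8.7 in favour of IL4 (difference -3.13, SE 0.0884). Gas6, a ligand of the MERTK receptor that clears dead cells, had 837, 871 and 560 against 2782, 2898 and 2911, and Spp1, osteopontin, 22420, 21120 and 38280 against 48620, 49860 and 45370. Vegfa, Pdgfa and Pdgfb were 1.58-fold, 1.93-fold and 1.57-fold higher with LPS+IFNg. Grn, progranulin, was called at 0.25 but not without LPS+IFNg replicate 3 (0.07, adjusted p = 0.212), nor without any 1 of the IL4 libraries (adjusted p from 0.0607 to 0.089).

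Co-stimulatory and checkpoint molecules were higher with LPS+IFNg in 13 of 18 tested genes and lower in 4 (median 1.75). Cd274 (chr19:29367455-29388095), the checkpoint ligand PD-L1, had 1575, 1498 and 4420 with LPS+IFNg, 194, 209 and 176 with IL4 and 79.8 to 106 (median 85.8) untreated, and Cd40 809.7, 794 and 2216 against 154, 151 and 137 and 64.1 to 75.7 (median 67.6). In both genes the IL4 libraries also lay above all untreated ones. Icam1, the adhesion ligand of leukocyte integrins, had 7630, 7086 and 21950 against 619.7, 621 and 603. Without replicate 3 the ratio was 7.96 instead of 12.9 for Cd274, 5.43 instead of 8.63 for Cd40 and 12 instead of 19.9 for Icam1. Cd86, the co-stimulator of T cells, had 61.2, 75.7 and 163 against 52.6, 52.2 and 50.6 and 53.2 to 79.8 (median 72.9) untreated, and its call (adjusted p = 0.0105) was lost without that library (0.39, adjusted p = 0.0797). Lower with LPS+IFNg were the checkpoint ligand VISTA, listed as 4632428N05Rik (386, 365 and 509 against 1614, 1674 and 1671), Cd276, Havcr2 and Cd48.

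Enzymes and transporters of arginine did not follow a single direction, with 5 of 17 tested genes called higher with LPS+IFNg and 6 lower (median -0.04). Nos2 (8.84) and Arg1 (-5.14) stood at its ends. Gch1, which makes the cofactor of nitric oxide synthase, had 338, 371 and 265 with LPS+IFNg and 89.6, 98.8 and 137 with IL4. Ass1, which regenerates arginine, had 104, 138 and 172 against 93.8, 7.06 and 37.2 and was not called (2.14, adjusted p = 0.052). Slc7a2, an arginine transporter, had means of 425 ± 334 with LPS+IFNg, 314 ± 23.3 with IL4 and 154 ± 22.2 untreated, and it was not called between the stimuli. In the polyamine branch Srm was lower with LPS+IFNg (751, 788 and 621 against 1036, 1072 and 1294), as was Sat1 (1904, 1808 and 2259 against 3748, 3573 and 3432), while Sms was 1.63-fold higher and Odc1, with means of 1152 ± 162 and 1205 ± 38.9, was not called.

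Alternative activation markers were lower with LPS+IFNg in 11 of 20 tested genes and higher in 2 (median -0.76). Mrc1 (chr2:14229392-14332057), the mannose receptor, had 1304, 1203 and 1183 with LPS+IFNg, 13450, 13380 and 12300 with IL4 and 4521 to 5268 (median 4814) untreated, a ratio of 10.6 in favour of IL4 (difference -3.41, SE 0.0591, adjusted p = 2.64e-18). The 3 groups were fully separate, with untreated cells between the stimuli. Mmp12 (chr9:7344381-7369499), macrophage elastase, had 10.1, 8.6 and 9.03 against 118, 97.4 and 106 and 77.6 to 96.4 (median 86.5) untreated. Flt1, a VEGF receptor, had 3503, 3509 and 3696 against 6158, 5972 and 5790 and 3360 to 3808 (median 3624) untreated, so that LPS+IFNg overlapped the untreated libraries. Tfrc, the transferrin receptor, had 2538, 2213 and 2915 against 8619, 7842 and 7530 and 3001 to 3460 (median 3291) untreated. The 2 members higher with LPS+IFNg were Plk2, a stress-induced kinase (5688, 5398 and 4918 against 1729, 1858 and 1752), and Il1rn. Tgm2, Alox15, Pdcd1lg2, Tgfb1, Socs2, Ocstamp and Cish were not called, and the means of Tgm2, a transglutaminase often used as a marker of IL4 responses, were 44.8 ± 5.87, 32.8 ± 4.74 and 39.7 ± 6.98 untreated.

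Of 19 tested C-type lectins and scavenger receptors, 7 were called higher with LPS+IFNg and 9 lower (median -0.15). Clec4e (7749, 5894 and 4523 against 35.9, 42.4 and 33.4), the receptor Mincle for mycobacterial glycolipid, and its neighbour Clec4d (763, 755 and 472 against 228, 223 and 205) were higher with LPS+IFNg. Clec4a3, an inhibitory member of the same cluster, was lower, with 33.3, 26.6 and 27.1 against 148, 141 and 140.1. Lower with LPS+IFNg were also Cd36, a receptor for fatty acids and oxidized lipoprotein (169.7, 204 and 332 against 1392, 1382 and 1304 and 656 to 739.7 (median 683) untreated), and Colec12 (1007, 915 and 798 against 2206, 2249 and 2131). Clec7a, the beta-glucan receptor, had means of 60.5 ± 15.1 against 147 ± 9.36 (difference -1.29).

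Toll-like receptors and cytosolic sensors were called higher with LPS+IFNg in 12 of 24 tested genes and lower in 5 (median 0.26). Tlr2, a receptor of bacterial lipopeptides, had 2614, 2655 and 2128 against 266, 302 and 225 and 475 to 572 (median 532) untreated, and Nlrp3, the inflammasome sensor, 1355, 1245 and 882 against 111, 97.4 and 118. Nod1, Nod2 and Tlr3 differed by 2.96, 3.18 and 3.03. The lower receptors were Tlr1, Tlr5, Tlr7, Tlr8 and Tlr13. Tlr13, a sensor of bacterial ribosomal RNA, had 643, 666 and 124 against 1008, 1001 and 875, with replicate 3 far below the others of its group, and its difference of -1.35 was -0.55 without that library. From the 6 stimulated libraries alone Tlr13 was not called (adjusted p = 0.0792). Tlr1, called at -0.31, was not called without LPS+IFNg replicate 3 (-0.25, adjusted p = 0.0824), LPS+IFNg replicate 2 (adjusted p = 0.0828) or IL4 replicate 1 (adjusted p = 0.126).

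Of 19 tested complement and Fc receptor genes, 10 were called higher with LPS+IFNg and 5 lower (median 0.77). C3 (20980, 20300 and 33350 with LPS+IFNg, 5003, 4451 and 5130 with IL4 and 1187 to 1383 (median 1285) untreated), the central component, was far above untreated cells with both stimuli. Cfb, factor B of the alternative pathway, had 833, 717 and 655 against 1.2, 2.82 and 1, a difference of 8.16, and 8.45 without IL4 replicate 2. C1qb had 154, 175 and 724 against 1, 1.41 and 1.08, and its mean without replicate 3 was 165 instead of 351. The complement receptor subunits Itgam and Itgax were lower with LPS+IFNg, with differences of -0.48 and -0.49. Fcgr1, the high-affinity IgG receptor, was higher (1.35) and the inhibitory Fcgr2b lower (-0.50).

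Genes of the disease-associated microglia list were lower with LPS+IFNg than with IL4 in 17 of 21 tested and higher in 3 (median -0.73). Apoe, a lipid carrier, had 4411, 5074 and 4017 with LPS+IFNg, 18230, 23070 and 22670 with IL4 and 13820 to 17420 (median 16030) untreated, a ratio of 4.74 in favour of IL4. Timp2, an inhibitor of matrix proteases, had 447, 523 and 420 against 1744, 1752 and 1751, Ank, a pyrophosphate transporter, 423, 446 and 404 against 1314, 1393 and 1350, and Trem2, a lipid-sensing receptor, 937, 971 and 1210 against 1639, 1810 and 1693. The groups did not overlap in these genes. The 3 higher with LPS+IFNg were Cst7 (2568, 2460 and 3156 against 448, 498 and 521), B2m and Csf1. Gpnmb had 70700, 71140 and 99880 against 80760, 78700 and 77790 and was not called (0.01, 95% interval -0.21 to 0.22). Of 17 homeostatic microglia genes tested, 8 were lower with LPS+IFNg and 1, Gpr84, higher. Mef2c, a transcription factor of microglia, had 134, 156 and 137 against 288, 267 and 259.6. For Mef2c the untreated libraries, at 381 to 488 (median 442), lay above both stimulated groups.

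Lipid genes were lower with LPS+IFNg. Of 22 tested cholesterol synthesis genes, 12 were called lower and 1 higher (median -0.41), and of 27 tested LXR target and lipid handling genes, 19 were lower and 2 higher (median -0.69). Sqle, squalene epoxidase, had 665, 619.8 and 582 against 1356, 1362 and 1450, and Hmgcs1, an early enzyme of the pathway, 831, 854 and 698 against 1789, 1756 and 1683. Insig1, which restrains this synthesis, was the gene that went the other way, with 1711, 1585 and 1840 against 1245, 1194 and 1271. Among the lipid genes Scd2, a desaturase, had 16720, 17210 and 15520 against 54340, 53260 and 50790 and 39730 to 45160 (median 42300) untreated, and Acadm, an enzyme of fatty acid oxidation, 897, 867 and 747 against 2478, 2372 and 2287. Fasn, fatty acid synthase, had means of 3380 ± 1186, 10510 ± 275 and 9930 ± 267, and the exporters Abca1 and Abcg1 differed by -0.84 and -0.77. The 2 higher were Npc2 (1.58-fold) and Nr1h2 (1.39-fold).

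The cyclooxygenases were opposed within the eicosanoid list, in which 6 of 13 tested genes were called higher with LPS+IFNg and 2 lower. Ptgs2, given above, was higher with LPS+IFNg and Ptgs1 higher with IL4. The phospholipase Pla2g7 had 41.1, 27.5 and 84.7 against 5.38, 4.24 and 3.77, the prostaglandin E synthase Ptges means of 22.4 ± 2.52 against 8.07 ± 1.81, and Alox5ap, the partner of 5-lipoxygenase, was lower with LPS+IFNg (1377, 1297 and 1552 against 1957, 2017 and 2024).

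Genes of the TCA cycle were lower with LPS+IFNg in 23 of 27 tested and higher in 2 (median -0.36). Irg1 (chr14:103046977-103056573), which makes itaconate from a cycle intermediate, had 7432, 7024 and 5414 with LPS+IFNg, 25.7, 31.1 and 26.4 with IL4 and 28 to 52.8 (median 37.1) untreated, and it is one of the 2 higher genes, with Pcx, pyruvate carboxylase (661, 619 and 649 against 336, 366 and 369). Idh1, which is cytosolic, had means of 764 ± 251 against 1709 ± 75.7 (difference -1.22). The mitochondrial Idh3a, Idh2, Ogdh and Sdha had differences of -0.80, -0.72, -0.64 and -0.56, all under 2-fold. The differences of these enzymes were thus small beside that of Irg1 (7.84). Cs and Dld were not called. The median difference over all genes was -0.0567 with the libraries rescaled to equal totals and -0.0804 with quantile normalization, against 0.0029, so shifts of this size depend on the scaling, and those of the named cycle enzymes were larger.

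Of 27 tested genes of glycolysis and the hypoxia response, 12 were called higher with LPS+IFNg and 9 lower (median 0.04), and without LPS+IFNg replicate 3 these counts were 9 and 11. Slc2a6, a lysosomal hexose transporter, had 3741, 3977 and 3578 against 900, 899 and 907, Hk3 9175, 9523 and 13850 against 3810, 4135 and 3759 and Pgk1 8467, 8365 and 10420 against 5573, 5441 and 5230. Lower with LPS+IFNg were Pfkfb4, with 79, 79.95 and 67.7 against 195, 224 and 176, and Pfkm, the muscle-type phosphofructokinase, with 613, 598 and 531 against 1027, 1009 and 949. Ldha and Gapdh, at the end and in the middle of the pathway, were not called, with differences of -0.03 and 0.16. Hif1a, the hypoxia factor, was higher (0.94), while the hypoxia-responsive Bnip3 and Ankrd37 were lower.

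**Figure D5:**
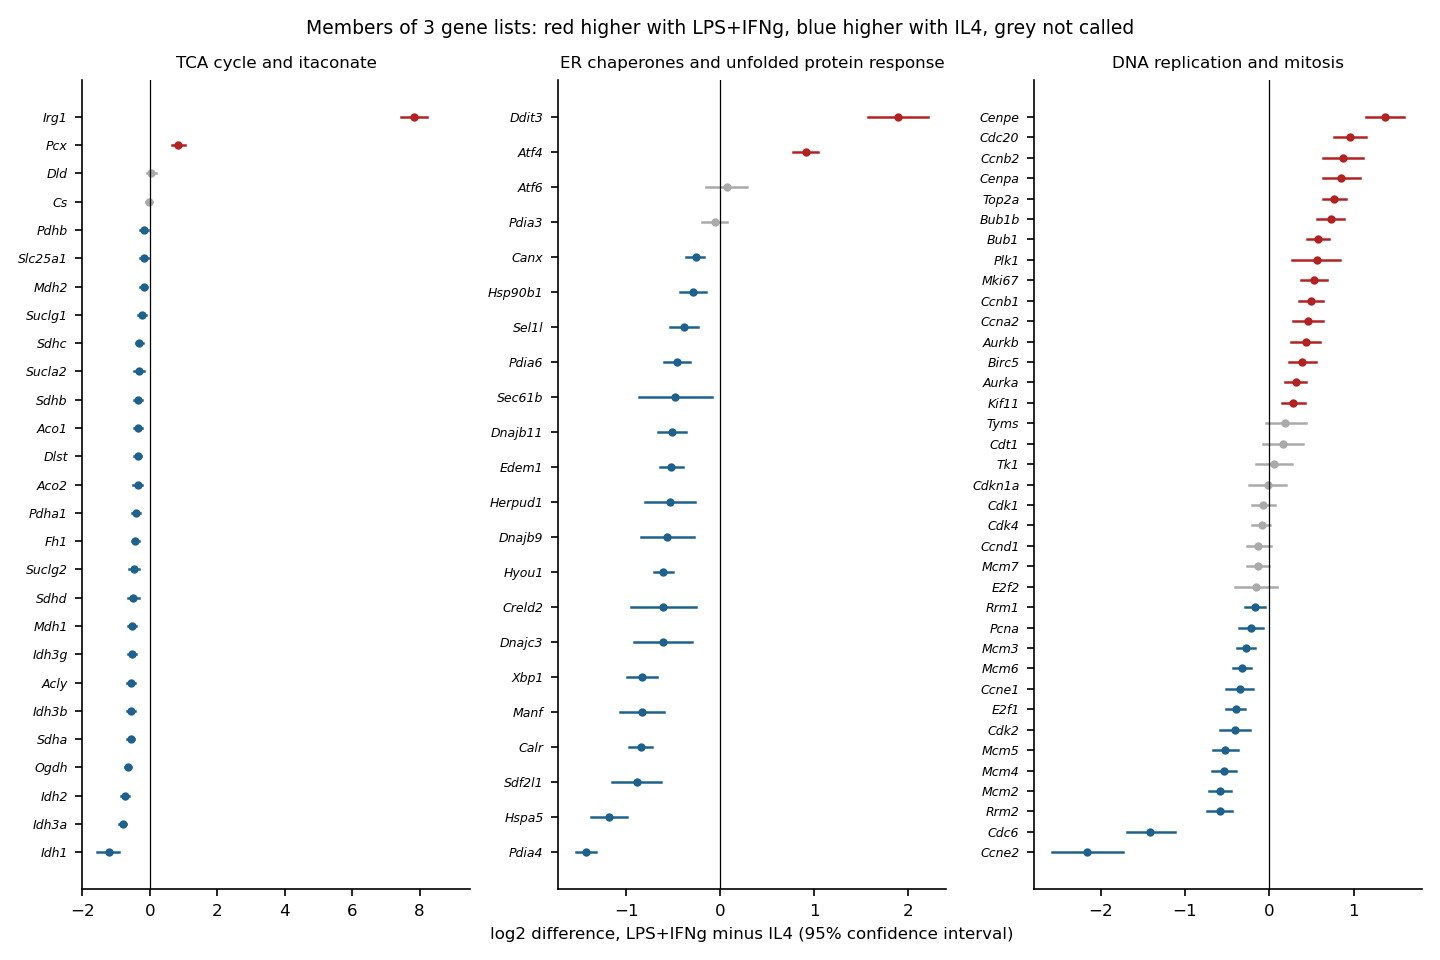
Log2 differences LPS+IFNg minus IL4 with unadjusted 95% confidence intervals (x axis, one scale per panel) for the tested members of the TCA cycle, ER chaperone and cell cycle lists, red where called higher with LPS+IFNg, blue where called higher with IL4 and grey where not called. Irg1 stands alone at 7.84 in the first panel, Ddit3 and Atf4 lie right of 0 in the second, and the third divides between Cenpe (1.37) and Ccne2 (-2.16).

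Genes of the phagocyte oxidase, of the NRF2 response and of iron handling were higher with LPS+IFNg in 18 of 29 tested and lower in 3 (median 0.70). Cybb, the catalytic oxidase subunit, had 32690, 30680 and 33980 with LPS+IFNg, 2653, 2423 and 2375 with IL4 and 3966 to 4674 (median 4278) untreated, so that IL4 lay below untreated cells. Slc7a11, the cystine importer, had 4871, 4086 and 3594 against 756, 733 and 649 and 1033 to 1230 (median 1175) untreated. Lcn2, an iron-binding lipocalin, had 379, 319.8 and 229 with LPS+IFNg and no IL4 library above the floor. Its depth-adjusted ratio was 450.1 with IL4 set at 3 reads over the group, and 675 with the 2 reads that the floor allows (exact 95% counting interval 186 to 5582). Fth1, the ferritin heavy chain, had means of 102900 ± 11760 against 52760 ± 3315. Tfrc, given above, was lower with LPS+IFNg, so the iron importer and the storage gene differed in opposite directions. Gclc was also lower (-0.45), while Gclm, the other subunit of the same enzyme, was higher (1.61). From the 6 stimulated libraries alone Gclc was not called (adjusted p = 0.0507). Cat, catalase, was called at -0.18 although its groups overlapped, and not without LPS+IFNg replicate 3 (-0.09, adjusted p = 0.228), LPS+IFNg replicate 2 (adjusted p = 0.0517) or any 1 of the IL4 libraries (adjusted p from 0.051 to 0.116).

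Of 24 tested cell death genes, 18 were called higher with LPS+IFNg and 1 lower (median 0.52), and without LPS+IFNg replicate 3 these counts were 16 and 3. Casp4, the caspase that senses cytosolic LPS (caspase-11 of the mouse), had 1024, 907 and 1316 against 129, 152 and 126, and Mlkl, the effector of necroptosis, 994, 976 and 1314 against 231, 209 and 202. Cflar, an inhibitor of caspase-8, was also higher, with 3104, 2873 and 4214 against 813, 882 and 808. Gsdmd, the pore-forming protein of pyroptosis, was 2.91-fold higher. The 1 lower gene was Pmaip1, with 263, 249 and 387 against 361, 416 and 352, whose groups overlapped in replicate 3. Pmaip1 was not called without IL4 replicate 2 (adjusted p = 0.102), LPS+IFNg replicate 1 (0.0974) or LPS+IFNg replicate 2 (0.125).

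Of 37 tested genes of DNA replication and mitosis, 15 were called higher with LPS+IFNg and 13 lower (median -0.02), and without LPS+IFNg replicate 3 these counts were 15 and 16. Among the higher genes were Cenpe (1572, 1448 and 1368 against 681, 607 and 437 and 794 to 899 (median 865) untreated), a kinetochore motor, Cdc20 (896, 896 and 794 against 387, 457 and 492), an activator of the anaphase-promoting complex, Top2a (1.71-fold) and Bub1b (1.67-fold). Among the lower genes were Ccne2 (113, 64.5 and 47.4 against 325, 315 and 314 and 279 to 412 (median 349) untreated), a cyclin of S phase entry, Cdc6 (65.1, 71.3 and 86.9 against 215, 168 and 213), which loads the replicative helicase, Mcm2 (851, 813 and 769 against 1159, 1207 and 1278) and Rrm2 (542, 526 and 576 against 799.6, 808 and 867). Every called Mcm gene (Mcm2, Mcm3, Mcm4, Mcm5 and Mcm6) was lower with LPS+IFNg, and Mcm7 was not called (-0.14). For Cenpe the IL4 libraries lay below all untreated ones and the LPS+IFNg libraries above them.

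Endoplasmic reticulum chaperones and genes of the unfolded protein response were lower with LPS+IFNg in 18 of 22 tested and higher in 2 (median -0.53). Hspa5, the chaperone BiP, had 6897, 6820 and 4797 with LPS+IFNg, 13610, 13910 and 14120 with IL4 and 10710 to 11580 (median 10900) untreated, and Pdia4, a disulfide isomerase, 819.8, 850.2 and 898 against 2307, 2255 and 2362 and 976 to 1074 (median 1027) untreated. In both genes the untreated libraries lay between the groups. Xbp1, a transcription factor of this response, had means of 417 ± 26.3 against 741 ± 40.7 (difference -0.83). The 2 higher genes were Atf4 (5063, 4901 and 4321 against 2380, 2499 and 2704) and its target Ddit3 (994, 1000 and 1812 against 341, 306 and 330.2), which belong to the arm that slows translation.

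Lysosomal genes had 13 of 28 tested lower with LPS+IFNg and 7 higher (median -0.22), and 16 and 5 without LPS+IFNg replicate 3. Ctss, given above, was higher, as were Ctsz (1.54-fold) and Ctsc (1.62-fold). Lower were Ctsf (224, 215 and 233 against 563, 593 and 606), Gusb (2043, 2067 and 2024 against 3318, 3493 and 3376) and Atp6v1a, a subunit of the proton pump (4688, 4551 and 5190 against 7789, 7659 and 7411). Ctsk had means of 23770 ± 7219 with LPS+IFNg, 38260 ± 1517 with IL4 and 41550 ± 1962 untreated. Its IL4 mean was thus near the untreated one.

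Of the 13 microglia and macrophage identity genes, 3 were called higher with LPS+IFNg and 5 lower (median -0.25). Aif1, which encodes the microglial marker IBA1, had 193, 208 and 256 with LPS+IFNg, 51.4, 42.4 and 44.7 with IL4 and 17.2 to 34 (median 23.2) untreated, and Ptprc, which encodes CD45, 2336, 2283 and 3440 against 1768, 1741 and 1499. Emr1, which encodes F4/80, had 6951, 6336 and 7515 against 5692, 5852 and 5509 and 2814 to 3132 (median 3011) untreated, so that both stimuli lay above untreated cells. Lower with LPS+IFNg were Tyrobp, an adaptor of TREM2, with 1777, 1743 and 2072 against 3194, 3172 and 3143, and Spi1, the lineage factor PU.1, with 1067, 1210 and 952 against 1452, 1700 and 1590.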

How the data were processed

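Embryonic-stem-cell-derived microglia were stimulated in culture for 24 h, RNA was extracted with TRIZOL, and libraries were made from 1 µg of total RNA with an Illumina TruSeq kit, per the labels' protocols. The submitters' processing notes name TopHat2 2.0.3, Partek 6.6, R 3.0.2, DESeq2 and mm10, with no role for each, and whether counting used strand is not given in the sources used here. The deposited table holds 1 normalized count signal per gene and library. Its unit was inferred from the values: within a library nearly all values are whole multiples of 1 step, with values below 1 set to 1, so the authors appear to have divided read counts by 1 factor per library. All values above 1 came out whole within 0.01 reads or 1e-05 of the reads, whichever was larger. A separate unit check did not accept most of the columns as whole reads, so the recovered reads remain inferred. These recovered reads served for depth, for read ratios of genes near the floor (3 counts over a group with no library above it, or the most reads that the floor allows, 1 or 2 in a library whose read is worth less than 1), for exact 95% intervals of counting error and for 1 alternative fit. All 15 value columns were used, and the table holds only genes whose highest value is at least 11.1.

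Differences were tested with limma 3.58.1 (R 4.3.3) after taking log2(value + 1), for the 11138 genes that reached 10 in 3 or more libraries, with a mean-dependent prior, 1 fit over the 15 libraries and Benjamini-Hochberg adjustment. Fold changes on this scale understate those of low genes. The scripts were tested on simulated data. Named genes were the panel of 32, the 12 highest and 12 lowest log2 differences among called genes whose higher mean reached 50 and whose groups did not overlap (predicted genes, RIKEN clones, ribosomal protein and microRNA genes left out), and up to 4 called members in each direction per list by moderated statistic. List members that were not called, and further called members (such as Irgm2, Isg15, Psmb9, Ccl2, Fasn, Idh1 and Mcm3), were named for their known role after their values were seen. The members, the panel and the 40 lists (807 symbols, 614 in the table) were chosen with earlier results of these data known. Gene positions come from GENCODE M21 (GRCm38), found for 99.2% of symbols. Promoters are those of RefSeq on GRCm38.p6: of the ranked genes with a searched motif, windows that overlap an annotated exon were passed over, and Gbp7 and Cxcl10 were added after their values were seen. Results for some genes and 1 motif are not reported here. Alternatives were other pseudocounts, filters, scalings, priors, library weights, thresholds and each replicate left out. Count models were planned and not run, because the recovered reads are inferred.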

Additional observations from a re-analysis of the deposited data

Results flagged for a closer look

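Of 47 genes checked over the 6 untreated libraries (the measured panel and the ranked genes), 2 held 1 library far from the other 5 by Dixon's criterion (0.625 for 6 samples), which chance alone meets in about 1 in 20 groups. Ciita, the class II regulator, had 1.104 in untreated replicate 3, where the other libraries were at 1 to 1, the floor. That value is 1 recovered read. With the other libraries tied at the floor, any value above it would be flagged, so the 1 in 20 does not apply to Ciita. Atp2b4, the calcium pump, had 129.4 in untreated replicate 5, below the 148.1 to 158.9 of the others and still above all 6 stimulated libraries.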

How the results depend on the processing

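No paired analysis was possible because the labels give the libraries no replicate numbers that the groups share. Leaving out each of the 6 libraries in turn gave 5828 to 6310 called genes, 2915 to 3162 higher with LPS+IFNg and 2913 to 3148 lower, at least 2-fold 815 to 948 and 513 to 614, and 461 to 492 called list members of 482 in the main fit. Fewer genes, 5580, were called from the 6 stimulated libraries alone, and these included 85.5% of the calls of the main fit. Adjusted p-values of the main fit rest on the spread of all 15 libraries. From the 6 libraries alone those of Tnf and Mrc1, for example, were larger. Untreated cells were nearer to IL4 in 80.9 to 84.4% of the called genes with each library left out in turn, against 83.1%. The same share was 84.4% from the 6 stimulated libraries alone, 80.0% with array weights, 82.1% with limma voom on recovered reads (added after the data were seen), 85.1% at adjusted p below 0.01 and 94.4% with limma's treat. Treat, which tests against a difference of 1 on the log2 scale, called 691 genes, 468 higher and 223 lower, with 205 list members, and the interferon response core was in 14.3% of promoters of its higher genes against 4.25%. Of the called genes, 44.0% were higher with LPS+IFNg with equal totals, 41.7% with quantile normalization and 44.8% with voom, with medians of -0.0567, -0.0804 and -0.0519. Over 17 settings, 224 panel, ranked and list-picked genes were refitted, and 0 reversed. Of their 220 calls, 14 were lost in some setting other than treat. Among these were, from the 6 libraries alone, Tlr13 (adjusted p = 0.0792), Ifi30 (0.0677) and Gclc (0.0507). Further called list members outside these 224 also lost their call in some setting, among them Cxcl9, Irf5, Kdm6b and Tlr1. Cish, not called in the main fit, was called with array weights (-1.44, adjusted p = 0.000891) and with voom (-0.95, adjusted p = 0.0161). edgeR and DESeq2 were not run. Depth limits the genes near the floor, for which ratios rest on few reads.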

Other observations

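The genes ranked 13 to 24 at each end, described here after their values were seen, included the following. Ly6a, a surface protein induced by interferons, had 686, 653 and 2868 with LPS+IFNg and 1, 1.41 and 1 with IL4. Batf2, a transcription factor of interferon-treated macrophages, had 396, 385 and 1418 and no IL4 library above the floor of 1, which allows 0 to 2 reads in the group. Its depth-adjusted read ratio was 937 with IL4 set at 3 reads in all, and 1405 with 2 reads (exact 95% counting interval 389 to 11610). Apol9a, an apolipoprotein L family member, had 532, 616 and 406 and a ratio of 745 with IL4 set at 3 reads, or 1118 (interval 309 to 9239) with 2, since its IL4 libraries were at the floor as well. Slamf8, a receptor that restrains macrophage oxidase activity, had 279, 218 and 1246, its IL4 libraries at the floor, and a ratio of 727 with 3 IL4 reads or 1090 (interval 301 to 9009) with 2. Without LPS+IFNg replicate 3 the LPS+IFNg means were 669.5 for Ly6a, 390.5 for Batf2 and 249 for Slamf8, against 1402, 733 and 581 with it. C1s1, a complement protease, had 739, 634 and 1630 against 3.59, 1.41 and 5.39.

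At the other end, Rgs2, a regulator of G protein signalling, had 86, 97.1 and 123 with LPS+IFNg, 1204, 1207 and 1202 with IL4 and 1126 to 1328 (median 1165) untreated. Cbr2, a carbonyl reductase, had 11.6, 18.1 and 12.4 against 186, 167 and 154 and 36.4 to 56.1 (median 46.2) untreated, and Igfbp5, which binds insulin-like growth factors, 6.97, 1.72 and 4.52 against 59.2, 55.1 and 47.4 and 23 to 44.8 (median 32.5) untreated. Slc39a12, a zinc transporter, had 4.65, 3.44 and 5.64 against 63.4, 73.4 and 55.5 and 11.3 to 25.9 (median 18.3) untreated. Abcd2, a peroxisomal transporter of very long fatty acids, had 39.5, 38.7 and 27.1 against 401, 374 and 352 and 109 to 139.6 (median 116) untreated. Serpinb1a, an inhibitor of neutrophil proteases, had 14.7, 12 and 88.1 against 256, 261 and 239, with a difference of -3.26, and -4.14 without LPS+IFNg replicate 3.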
